A study of Drosophila melanogaster with 2 samples.

Results

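The GATA factor genes srp (serpent, FBgn0003507), pnr (pannier, FBgn0003117), GATAe (FBgn0038391) and grn (grain, FBgn0001138) were examined in ChIP-seq peak lists of the nuclear receptor Tailless. A summit, the position of highest signal within a deposited peak, was taken as belonging to one of these genes when their transcription start site (TSS) was the nearest protein-coding TSS within 20 kb, or when it lay in their gene bodies. This gave 14 of 4045 summits in the thresholded list, which holds the entries that passed the authors' reproducibility threshold. It gave 71 of 30000 summits in the list called on the pooled replicates, 72 of 30000 in replicate 1 and 70 of 30000 in replicate 3. The rule used gene names and positions, not signal values.

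The material was whole embryos of Drosophila melanogaster, mixed in sex and 0 to 4 h old, from 1 transgenic line (8T-GFP) with a stable Tailless-GFP fusion, the tag being at the C-terminal end. Chromatin was sonicated to a size range of 200 to 800 bp and precipitated with an antibody to GFP. The labels gave 1 group of 2 biological replicates, numbered 1 and 3, without saying whether they came from separate collections, and did not name the promoter that drives the fusion. Whole embryos mix cells with and without Tailless, so a weak signal in many cells and a strong signal in few cells cannot be told apart. With 1 group there was no comparison between conditions and no test: values are described with the spread over the 2 replicates, which may be technical. Controls were not analysed here, and depth is unknown because the lists hold no read counts. The replicate lists also share 1 control alignment, so their recurrence is not fully independent.

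GATA factors are zinc finger proteins that bind the sequence GATA in regulatory DNA and direct cell fate in many animals. In the fly embryo srp acts in the endoderm, fat body and blood cells, and GATAe acts after srp in the midgut. Pannier acts in the dorsal ectoderm, amnioserosa and heart, and grain acts in the posterior spiracles and in some neurons. Tailless is expressed at both poles of the early embryo under control of the Torso receptor, acts largely as a repressor there, and helps to set up the terminal regions from which the gut arises.

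The genes srp, GATAe and pnr lie side by side on chromosome arm 3R of dm6, all on the + strand, in the order srp (15986152 to 16004085, 17.9 kb, 4 TSSs), GATAe (16009105 to 16019133, 10.03 kb, 2 TSSs) and pnr (16026079 to 16041796, 15.7 kb, 3 TSSs). The stretch from the start of srp to the end of pnr covers 55.6 kb. The fourth, grn, lies apart on the same arm on the − strand (8147368 to 8181444, 34.1 kb, 1 TSS). All 4 genes had at least 1 thresholded summit, where 16.7% of 13945 protein-coding genes had one under the same rule. Gene length moved with this share: among the 1406 genes from 10.03 to 34.1 kb long, the range of these 4 genes, it was 35.8%. The 4 genes were chosen with earlier results of these data known. They leave out the family member GATAd, which had no thresholded summit, so they do not give a share for the whole family.

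A leading position stood above the rest at pnr, srp and GATAe. At grn the strongest summit and the next, to either side of the TSS, were of like height (451 and 357 pooled). The sequences below are the dm6 + strand around the summits the results turn on, read from the Release 6 assembly with the summit at the central base. They show the strongest summit of each gene and the other thresholded summits with a Tailless recognition word wholly inside the 50 bp to either side. Capitals mark 6-letter words: AAGTCA, the core bound by Tailless, which reads TGACTT on the other strand; CAGGTA, bound by the early activator Zelda, which reads TACCTG on the other strand; and TGATAA, bound by GATA factors, which reads TTATCA on the other strand.
pnr, strongest (chr3R:16034280-16034480): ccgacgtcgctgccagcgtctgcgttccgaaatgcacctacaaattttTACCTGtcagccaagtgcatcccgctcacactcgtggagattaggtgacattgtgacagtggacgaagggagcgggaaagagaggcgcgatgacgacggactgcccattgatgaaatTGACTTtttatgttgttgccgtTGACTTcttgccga
pnr, weakest thresholded (chr3R:16033082-16033182): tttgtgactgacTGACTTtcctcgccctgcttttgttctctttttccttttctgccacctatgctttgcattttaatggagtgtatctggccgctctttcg
srp, strongest (chr3R:15989469-15989569): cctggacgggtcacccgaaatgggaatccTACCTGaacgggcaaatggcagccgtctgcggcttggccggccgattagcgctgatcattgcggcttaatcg
srp, second summit of the same interval (chr3R:15989670-15989770): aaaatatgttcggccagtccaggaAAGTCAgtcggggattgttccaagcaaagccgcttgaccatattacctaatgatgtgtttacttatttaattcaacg
GATAe, only thresholded summit (chr3R:16007278-16007378): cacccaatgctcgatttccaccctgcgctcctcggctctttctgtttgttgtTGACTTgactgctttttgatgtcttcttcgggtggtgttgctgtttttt
grn, strongest (chr3R:8180532-8180632): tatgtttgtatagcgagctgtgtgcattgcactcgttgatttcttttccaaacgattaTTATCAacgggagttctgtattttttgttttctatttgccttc
In the pnr sequence a pair of TGACTT words lay on the downstream side of the summit and TACCTG on the upstream side. The second srp summit and the weakest pnr summit had 1 Tailless word each within 50 bp, and in GATAe the word began 2 bp from the summit. The strongest srp summit had a Zelda word and no Tailless word in its window, and the strongest grn summit had a GATA word and no Tailless word.

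Pannier had the strongest summit of the set. Its signal, the enrichment given by the authors' peak caller on a scale that is not stated, was 1004 in replicate 1 and 990.1 in replicate 3 (log2 mean 9.96 ± 0.014, SD, n = 2). It ranked 15 of 30000 in replicate 1, 11 in replicate 3 and 13 in the pooled list, where its value was 2008. The summit lay at 3R:16034380, in an intron of pnr, 206 bp upstream of the third TSS of the gene, at 16034586. In both replicates this position stood far above every other pnr summit: the ratio of the strongest to the next was 3.10 in replicate 1, 3.51 in replicate 3 and 3.43 in the pooled list.

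The other 4 thresholded pnr summits were weaker and spread from the first TSS to the intron before the third. The summit at 16028847, 2595 bp after the second TSS, had 324 in replicate 1 and 282 in replicate 3 (pooled 586, rank 484). A second summit in the same called interval, at 16029048, had 184 in replicate 1 and 105 in replicate 3 (pooled 309, rank 1733). The other pair, at 16026049, 30 bp upstream of the first TSS, and at 16033132, 1454 bp upstream of the third TSS, were higher in replicate 3 than in replicate 1. The one at the first TSS had 135 in replicate 1 and 152 in replicate 3 (pooled 285, rank 2046). The one at 16033132 had 114.9 in replicate 1 and 144 in replicate 3 (pooled 255, rank 2511). None of the 5 pnr summits lay downstream of the third TSS.

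**Figure D1:**
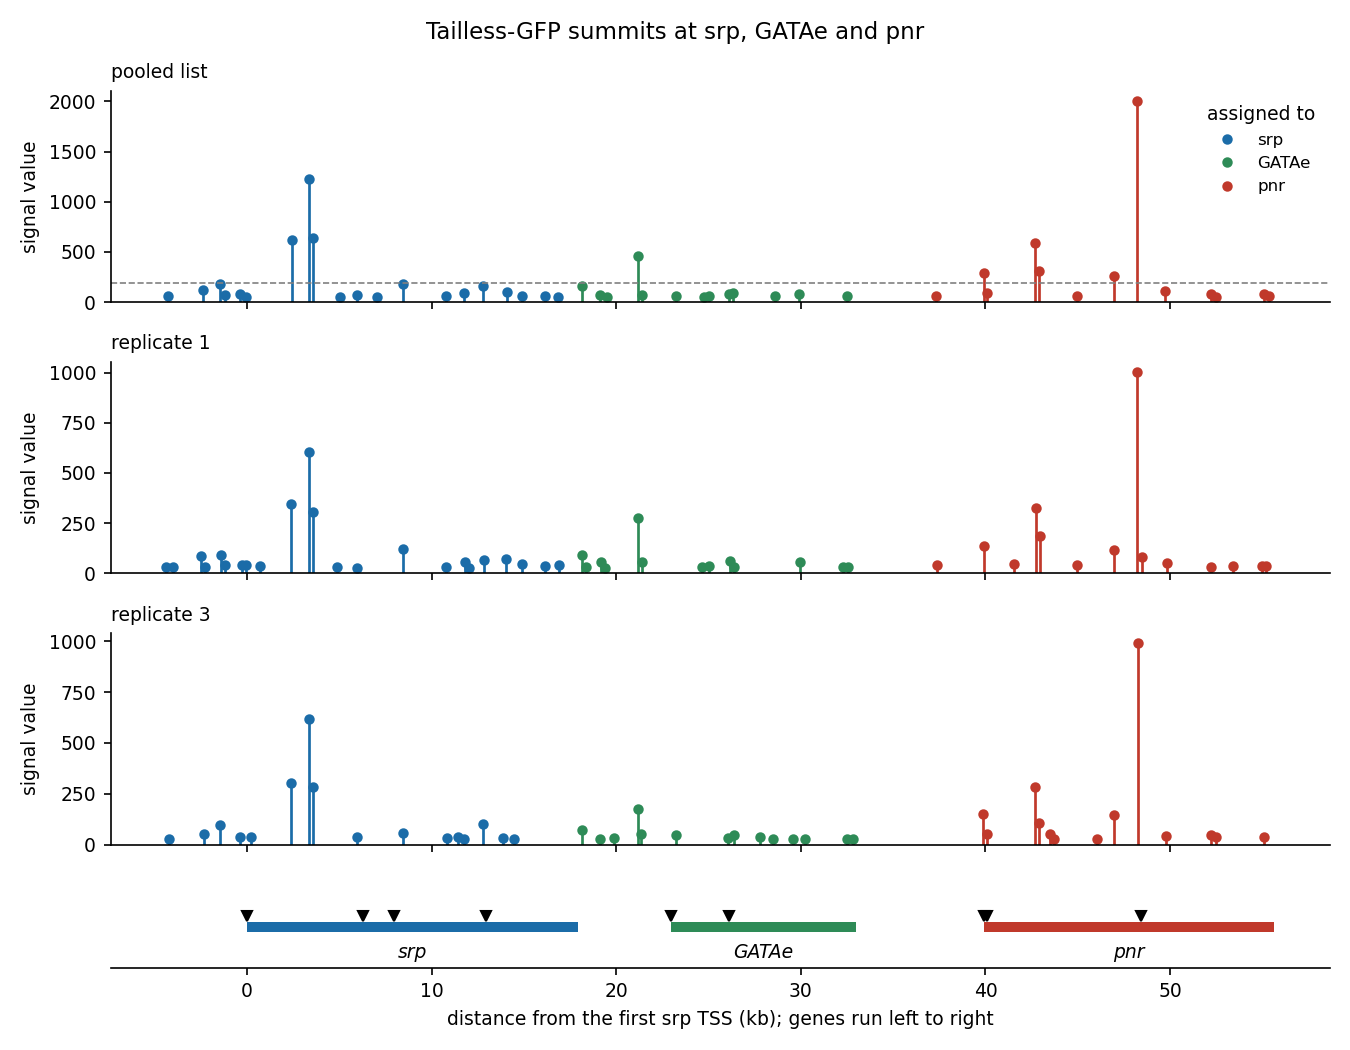
Signal value of each summit at srp, GATAe and pnr in the pooled list and in replicates 1 and 3, by distance in kb from the first srp TSS; bars below are gene bodies, triangles are TSSs and the dashed line is the lowest signal of the thresholded list. The tallest stem in each panel is the pnr summit (2008 pooled, 1004 and 990.1 in the replicates), followed by the srp summit at 1228 pooled.

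Serpent had 3 thresholded summits, all between its first and second TSS. The strongest, at 15989519, had 604 in replicate 1 and 619 in replicate 3 (log2 9.26 ± 0.024, SD, n = 2), a pooled value of 1228 and pooled rank 65. It lay 2915 bp upstream of the second srp TSS at 15992434, in DNA that is intron both of srp and of the long non-coding RNA gene lncRNA:CR44133. Both replicates had this position as the strongest at srp. The second summit of the same interval, at 15989720, had 306 in replicate 1 and 282 in replicate 3 (pooled 637, rank 394). The third, at 15988572, 2420 bp after the first TSS, had 343 in replicate 1 and 303 in replicate 3 (pooled 623, rank 416). In each replicate the third summit stood above the one at 15989720, while the pooled list had them in the reverse order with close values.

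GATAe had 1 thresholded summit, at 16007328, outside its gene body and 1777 bp upstream of its first TSS. Its signal was 278 in replicate 1 and 175 in replicate 3 (log2 7.79 ± 0.47, SD, n = 2), with a pooled value of 459.9 and pooled rank 803. The summit lay in an exon of lncRNA:CR42839, a non-coding gene on the − strand between srp and GATAe. Its spread over the replicates was the widest among the strongest summits of the 4 genes. The next pooled summit of GATAe, at 16004285 near the 3′ end of srp, had 92.2 in replicate 1 and 73.1 in replicate 3 (pooled 157, rank 5810). No summit inside the GATAe gene body passed the threshold: the summits nearest its TSSs at 16009105 and 16012274 had pooled values of 64.6 and 84.3.

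Grain had 5 thresholded summits and no dominant one. The strongest, at 8180582 in an intron 862 bp inside the gene, had 244 in replicate 1 and 195 in replicate 3 (log2 7.77 ± 0.23, SD, n = 2; pooled 451, rank 844). The next, at 8181651, 207 bp upstream of the single TSS, had 211 in replicate 1 and 145 in replicate 3 (pooled 357, rank 1336). These 2 differed little: the ratio of strongest to next was 1.16 in replicate 1, 1.35 in replicate 3 and 1.26 in the pooled list, the lowest ratios of the 4 genes. An intergenic summit at 8191068, 9624 bp upstream, had 184 in replicate 1 and 107 in replicate 3 (pooled 297, rank 1910). Deep in the gene, at 8152814, an intronic summit had 102 in replicate 1 and 96.7 in replicate 3 (pooled 199, rank 3874). It was counted through the gene body, since the nearest TSS was that of Arl8, a small GTPase gene, at 26209 bp. The fifth, at 8180781, was resolved from the strongest summit in replicate 3 (90.4) and not in replicate 1, where the nearest entry was the one at the strongest summit, 151 bp away. Called on replicate 1 alone (the 4045 strongest entries), grn had 3 summits in place of 5, and on replicate 3 alone it had 4.

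**Figure D2:**
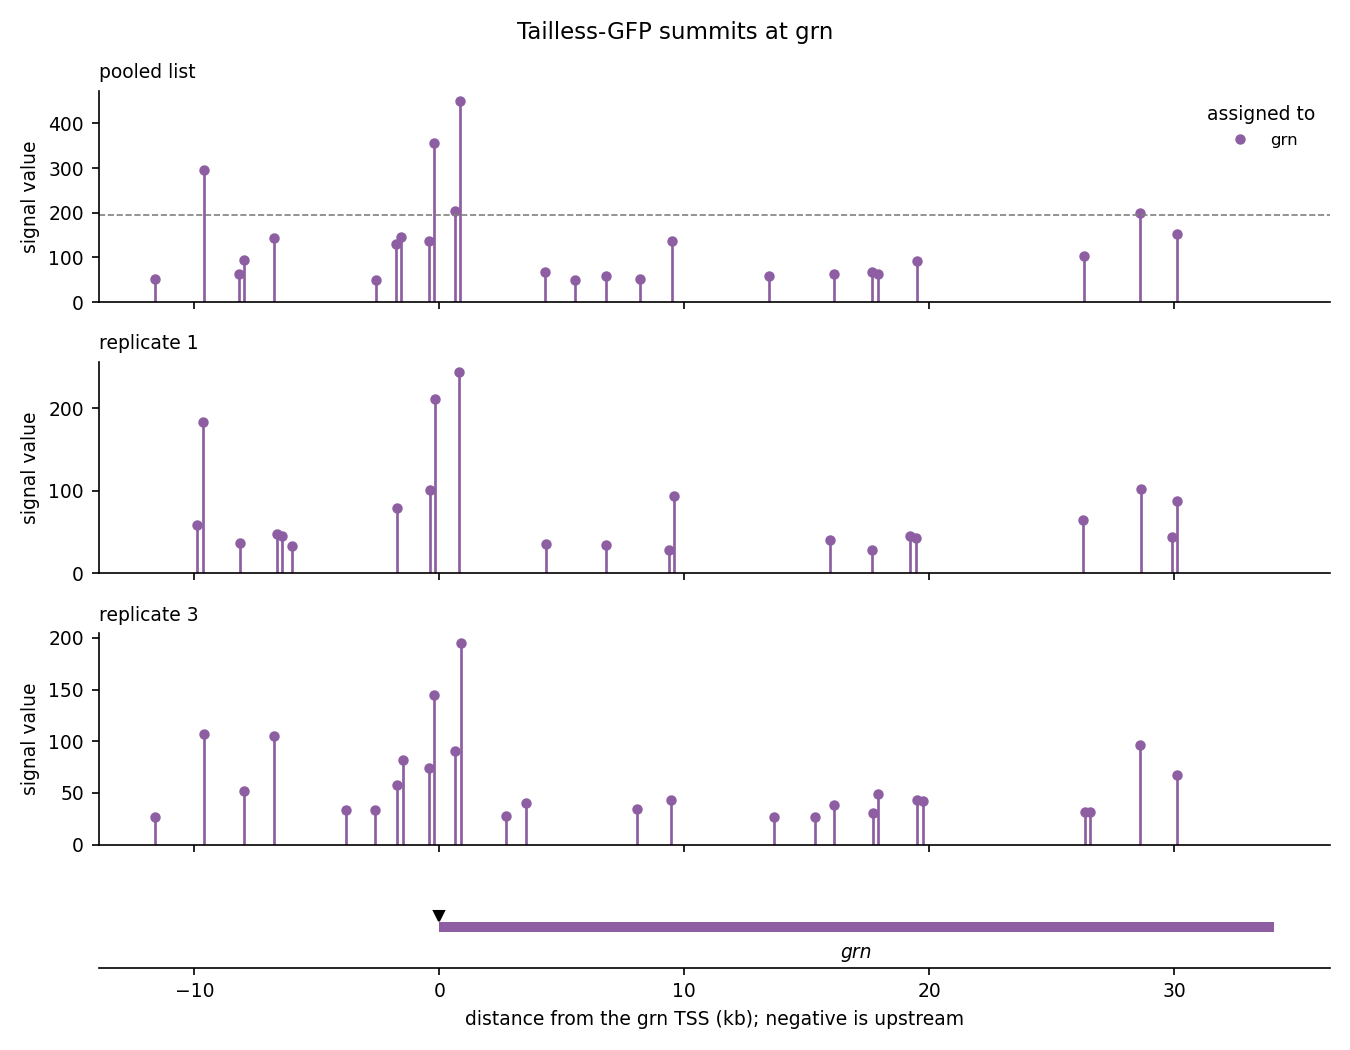
Signal value of each summit at grn in the pooled list and in replicates 1 and 3, by distance in kb from its TSS (negative is upstream); the bar is the gene body, the triangle the TSS and the dashed line the lowest signal of the thresholded list. Summits of like height flank the TSS (451 and 357 pooled), with others 9624 bp upstream and deep in the gene.

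The order of the strongest summits by log2 mean over the replicates was pnr, srp, GATAe and grn. Pannier stood above serpent by 0.73 in replicate 1 and 0.68 in replicate 3, more than the SD of either gene. Serpent stood above GATAe by 1.12 in replicate 1 and 1.82 in replicate 3, again beyond their SDs. GATAe and grn did not differ beyond their spread: GATAe was 0.19 higher in replicate 1 and 0.15 lower in replicate 3.

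**Figure D3:**
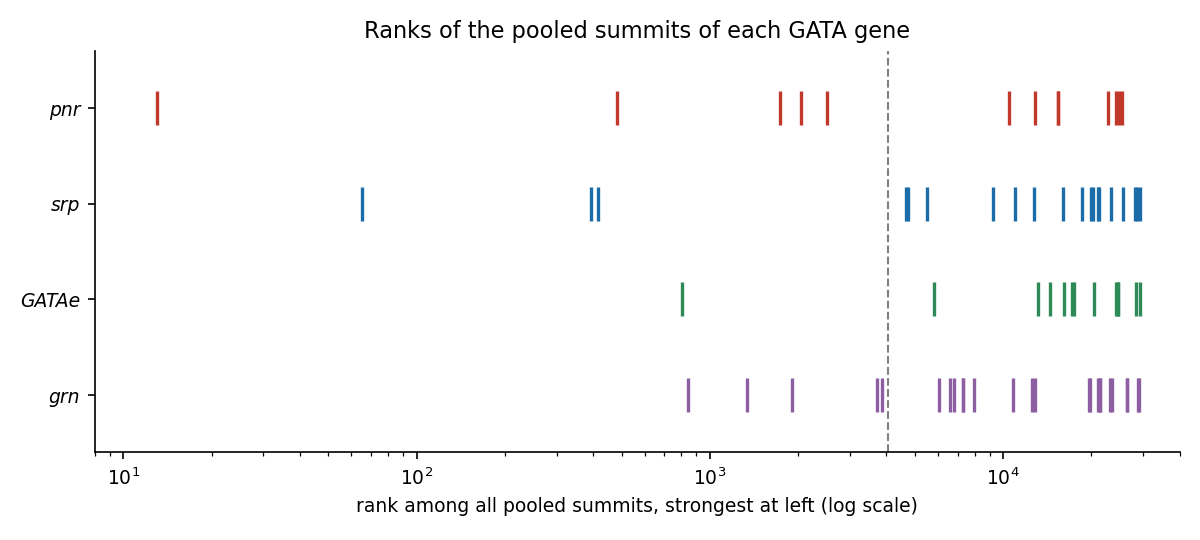
Rank of every pooled summit of the 4 genes among 30000 pooled summits (log scale, strongest at left), 1 row per gene; the dashed line marks rank 4045, the end of the thresholded list. The best ranks are 13 for pnr, 65 for srp, 803 for GATAe and 844 for grn.

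Most pooled summits of the 4 genes were weak. By gene, srp had 20 pooled, 23 replicate 1 and 16 replicate 3 summits, pnr had 13, 14 and 13, GATAe had 13, 13 and 14, and grn had 25, 22 and 27. The strongest summit held 49.9% of the summed pooled signal at pnr, 34.2% at GATAe, 30.9% at srp and 13.8% at grn. Of 71 pooled summits 14 (19.7%) were in the thresholded list, against 13.5% of all 30000 pooled summits. The 57 below it had signals from 47.9 to 177.9 with a median of 66.3, against a median of 74.4 for all 25955 pooled summits below it, members included. Of these 17 belonged to srp, 8 to pnr, 12 to GATAe and 20 to grn. The members nearest the threshold were 2 grn summits just inside (203 and 199, ranks 3716 and 3874) and 3 srp summits just outside (177.9, 176.6 and 161.7, ranks 4674, 4729 and 5508). The first of those srp summits lay 1441 bp upstream of the first TSS, the second 450 bp after the third TSS at 15994140, and the last 125 bp before the fourth TSS at 15999089. The pooled summits nearest the 4 TSSs of srp had signals of 53.6, 69.8, 176.6 and 161.7, against 1228 at its intronic peak. None of them passed the threshold. The first 2 lay below the median of all pooled summits (81.9) and the last 2 above it. At pnr, by comparison, a thresholded summit lay within 30 bp of the first TSS and 206 bp of the third.

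In thresholded summits pnr and grn led the set with 5 each, although their strongest summits ranked 13 and 844. Of all 13945 protein-coding genes 1.23% had 5 or more, and of the 1406 genes of like length 45 did (3.20%). Summits were dense across the cluster: from the start of srp to the end of pnr there were 1.62 thresholded summits per 10 kb, against 0.349 over the whole of 3R. In the pooled list the density was 7.19 per 10 kb there, against 2.26 over 3R. In the grn gene body it was 0.880 thresholded and 4.40 pooled summits per 10 kb. Summits closer than 199 bp were never called in any list, and 3 pairs of thresholded members lay within 210 bp, so members of such pairs are not independent sites.

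GATAd (FBgn0032223), the family member on 2L that is not in the set, had no thresholded summit and 3 pooled summits. Its strongest had 111.5 in replicate 1 and 63.6 in replicate 3, with a pooled value of 145.6 and rank 6576. All 4 genes of the set thus had stronger summits than GATAd in both replicates. The set was chosen with earlier results of these data known, so this order may follow from the choice. GATAd is also shorter, at 5.45 kb against 10.03 to 34.1 kb, and length was not matched here.

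Of the 14 thresholded summits 10 (71.4%) lay in introns, against 41.8% of all thresholded summits. Intergenic summits were 3 of 14 (21.4%), against 40.9% of all, and the remaining 1 was in a non-coding exon. Within 500 bp of a TSS lay 3 of 14 (21.4%), against 37.6% of all. In the pooled list the same order held with smaller gaps: 38 of 71 (53.5%) were intronic, against 42.5% of all, and 13 of 71 (18.3%) lay within 500 bp of a TSS, against 29.7% of all. These shares describe 4 long genes and were not tested. The windows around the summits had a median GC content of 46.5% for pooled members, against 43.6% for all pooled summits.

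**Figure D4:**
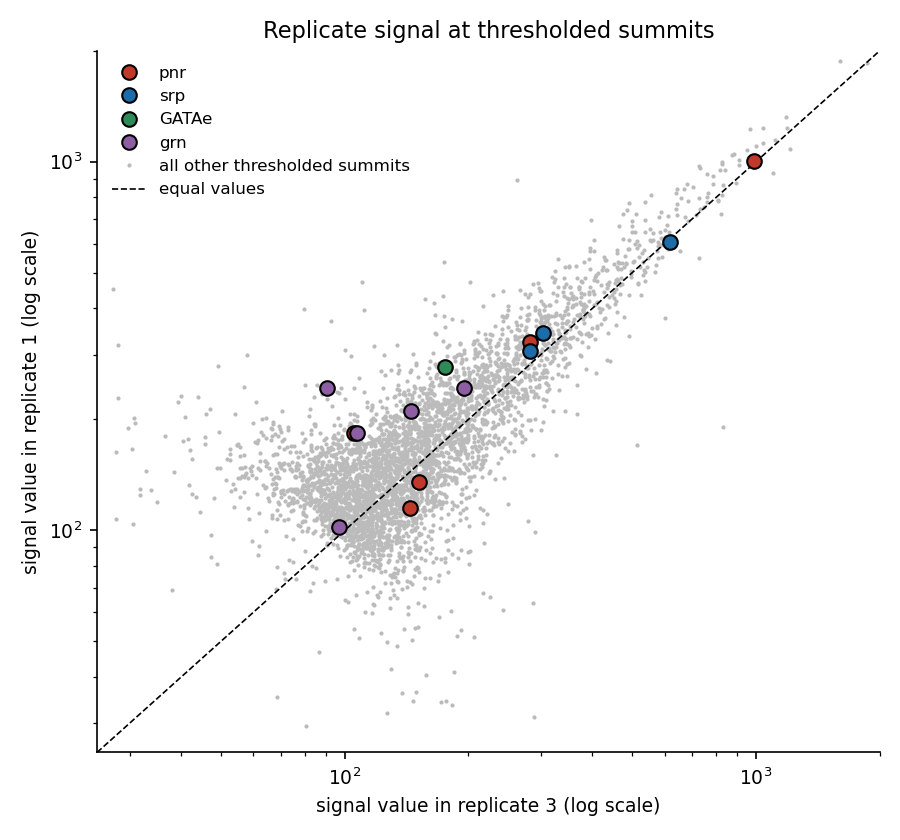
Signal value in replicate 1 against replicate 3 at the thresholded summits, both on log scales; coloured points are summits of the 4 genes, grey points all other thresholded summits and the dashed line marks equal values. The strongest pnr and srp summits lie on the line, while those of GATAe and grn lie above it; a pnr and a grn point near 184 in replicate 1 overlap.

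The replicates recovered the strong summits of the 4 genes in both directions. Of 72 replicate 1 summits at these genes, 60 (83.3%, exact binomial 95% interval 72.7 to 91.1%) overlapped an entry of replicate 3 by at least 1 bp, against 77.1% of all replicate 1 summits. Of 70 replicate 3 summits 57 (81.4%, 70.3 to 89.7%) overlapped replicate 1, against 73.6% of all. Both shares lay within counting error of the share of all summits. Every member ranked among the 4045 strongest recurred, 13 in replicate 1 and 14 in replicate 3, where 99.6% and 99.7% of all such summits did. The 12 members of replicate 1 that did not recur ranked 14428 or lower, and the 13 of replicate 3 ranked 11922 or lower. By gene, replicate 1 summits recurred in 20 of 23 cases at srp, 10 of 14 at pnr, 11 of 13 at GATAe and 19 of 22 at grn. Replicate 3 summits did in 16 of 16 cases at srp, 10 of 13 at pnr, 11 of 14 at GATAe and 20 of 27 at grn. The exact intervals of the genes overlap in both directions. Intervals on shares cover counting error only, because neighbouring summits are not independent.

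At the 14 thresholded summits the ratio of replicate 1 to replicate 3 signal had a median of 1.14 (range 0.798 to 2.70), and 11 of 14 were higher in replicate 1, against 2556 of 4032 thresholded summits with values in both. Over those 4032 the median was 1.11, with a 5th to 95th percentile range of 0.663 to 2.02. The highest member ratio, 2.70, was that of the grn summit at 8180781, 1 of the 11, whose replicate 1 value belongs to the summit 151 bp away. The median SD of log2 signal over the replicates was 0.19 at the 14 members and 0.21 at all, so the spread at members was close to that at all summits.

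Recognition words on either strand were counted when they lay wholly inside the 50 bp to each side of a summit. The Tailless word AAGTCA occurred at 3 of 14 thresholded summits (21.4%, exact interval 4.66 to 50.8%), against 15.0% of all thresholded summits, 1 each at srp (15989720), pnr (16033132) and GATAe (16007328). None of the 5 grn summits had it wholly inside that window (0 of 5, exact upper limit 52.2%), but at grn 8180781 a copy began 48 bp from the summit and ran past the window's edge. At pooled summits it occurred at 6 of 71 (8.45%, 3.16 to 17.5%), against 9.89% of all. The members were thus near the background in both lists. By replicate the share was 5.56% of 72 in replicate 1 (1.53 to 13.6%), against 9.44% of all its summits, and 14.3% of 70 in replicate 3 (7.07 to 24.7%), against 9.50% of all. Each differs from the pooled value by over 1.5 times, but both intervals hold their background and they overlap each other.

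At the strongest summit of the set the words lay just outside the window. At pnr 16034380 no Tailless word began within 50 bp, but the pair of words in the sequence above began 65 and 87 bp downstream. With 100 bp searched, 24.3% of all thresholded summits had a Tailless word. Replicate 1 placed the pnr summit at 16034385, which leaves these words 60 and 82 bp away. Replicate 3 placed it 36 bp downstream of the pooled summit, at 16034416, which brings them to 29 and 51 bp. A Zelda word began 52 bp upstream of the pooled summit. At the strongest srp summit a Zelda word began 21 bp upstream, and another copy began 52 bp upstream, partly outside the window. This summit was the only thresholded member with that word wholly inside 50 bp: 1 of 14, against 7.24% of all thresholded summits. Among pooled members 2 of 71 (2.82%) had the Zelda word, against 4.01% of all.

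GATA words, namely AGATAA or AGATAG and likewise TGATAA or TGATAG, were searched because GATA factors can bind their own genes. They occurred at 16 of 71 pooled summits (22.5%, 13.5 to 34.0%), against 16.0% of all pooled summits, and the interval holds the background. The share was 20.8% of 72 in replicate 1, against 15.5% of all, and 15.7% of 70 in replicate 3, against 16.4% of all. With 25 bp searched, 15.5% of pooled members had one, against 8.30% of all, while the shares were 9.72% in replicate 1 and 4.29% in replicate 3, against 8.03% and 8.61% of all. The gap at 25 bp was therefore not present in either replicate's own summits to the same size. Thresholded members had a lower share than all, within counting error: 1 of 14 (7.14%, 0.181 to 33.9%) had a GATA word wholly within 50 bp, against 16.5% of all thresholded summits. It was the strongest grn summit, with TGATAA beginning 8 bp to the higher-coordinate side, upstream in grn.

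**Figure D5:**
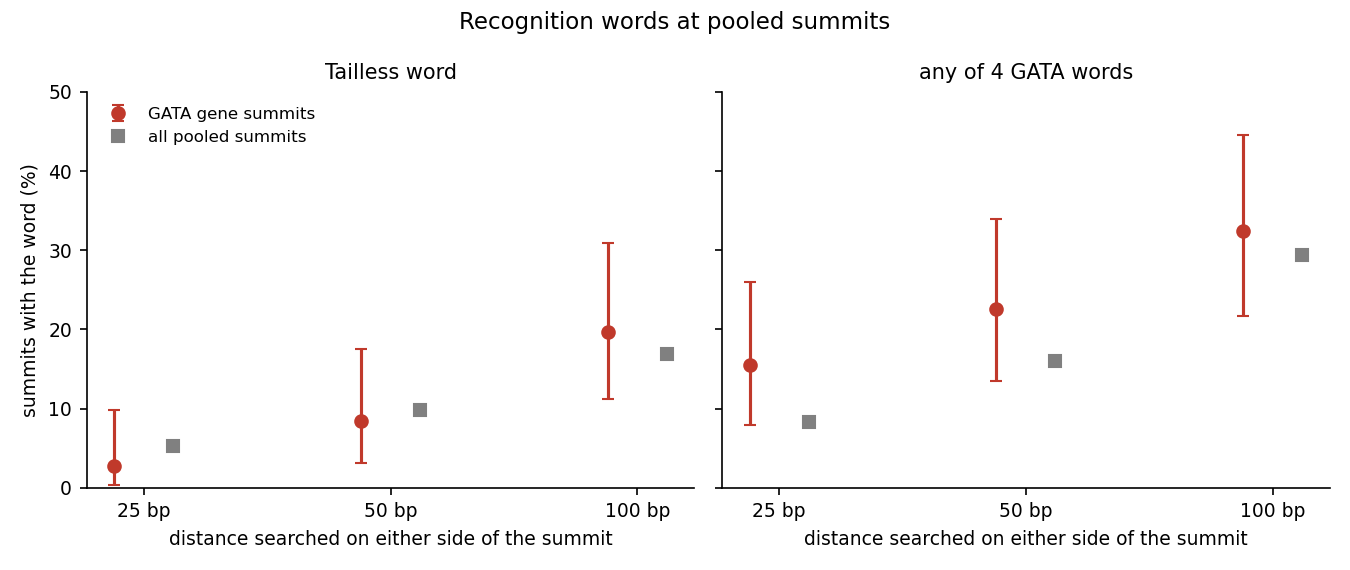
Share of pooled summits with the Tailless word (left) or any of 4 GATA words (right) when 25, 50 or 100 bp are searched on either side; circles are the 71 summits of the 4 genes with exact binomial 95% intervals, squares all 30000 pooled summits. The circles' intervals hold the squares at every width, the Tailless share being 8.45% against 9.89% at 50 bp.

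Across the 4 gene bodies the Tailless word occurred 48 times, 6.17 per 10 kb, against 5.80 per 10 kb over the 6 chromosome arms. Counting a copy with any base within 50 bp of a pooled summit, a wider rule than above, 5 of them (10.4%) lay by one, against 4.46% of 77657 occurrences over the 6 arms, in genes where summits are also denser. Most copies of the word in these genes, as over the 6 arms, were thus more than 50 bp from any pooled summit.

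Other thresholded summits stood next to the genes without being assigned to them. Upstream of grn, 3 thresholded summits nearest to CheA84a lay 22094 to 24273 bp from the grn TSS, the strongest with 814 (rank 205), higher than any grn summit. Before srp, 3 summits nearest to Hel89B and 1 nearest to mor, a chromatin remodelling subunit gene, lay 12455 to 13271 bp from the srp TSS. Their pooled signals were 206 to 259. Beyond pnr, Jhbp4 had no thresholded summit.

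Other genes of the tissues in which these factors act were counted in 5 lists, chosen with earlier results of these data known. A listed gene was called bound when it was the nearest protein-coding gene of a thresholded summit within 20 kb, true of 15.6% of 13945 genes. Over the lists 30 of 44 distinct genes (68.2%) were bound, with the shares differing widely. Gene length was not matched in these counts.

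Among GATA cofactors and partners 3 of 5 were bound: ush (u-shaped, the Friend of GATA protein that binds Pannier and Serpent), lz (lozenge, a Runx factor of blood cells) and CtBP (a corepressor). Ush had 405 in replicate 1 and 357 in replicate 3 at its strongest of 7 summits (pooled 743, rank 268). Lz had 159.9 in replicate 1 and 157 in replicate 3 (pooled 295), and CtBP had 138 in replicate 1 and 81.6 in replicate 3 (pooled 211). Chi and HDAC1 had no thresholded summit.

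Of the dorsal ectoderm, amnioserosa and heart genes, where Pannier acts, 12 of 12 were bound: hth, dpp, tup, Doc1, Doc2, Doc3, zen, tld, tin, ush, emc and peb. The homeobox gene hth had 866 in replicate 1 and 829 in replicate 3 (pooled 1662, rank 26). The BMP ligand gene dpp had 868 in replicate 1 and 680.1 in replicate 3 (pooled 1517, rank 37). The LIM-homeobox gene tup had 651 in replicate 1 and 601 in replicate 3 (pooled 1268, rank 58).

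In the posterior spiracle list, where grn acts, 8 of 8 were bound: Abd-B, ems, upd1, salm, crb, nub, klu and ct. The Hox gene Abd-B had 844 in replicate 1 and 669.6 in replicate 3 (pooled 1512, rank 38). The homeobox gene ems had 708 in replicate 1 and 672 in replicate 3 (pooled 1365, rank 51). The JAK/STAT ligand gene upd1 had 639 in replicate 1 and 562 in replicate 3 (pooled 1222, rank 66). Each of these 3 exceeded every grn summit in both replicates.

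The endoderm and midgut list of srp and GATAe had 6 of 10 bound: lab, cad, hkb, pnt, fkh and Itgbn, with byn, Ssk, mesh and Inx7 at none. The Hox gene lab had 375 in replicate 1 and 361 in replicate 3 (pooled 736). The homeobox gene cad had 419 in replicate 1 and 301 in replicate 3 (pooled 712), and hkb, the other terminal gap gene, had 449 in replicate 1 and 266 in replicate 3 (pooled 711). The lowest share was that of blood and fat body genes: 4 of 12 were bound, gcm, ush, lz and Pvr. Gcm, which specifies glia and blood cells, had 382 in replicate 1 and 394 in replicate 3 (pooled 778, rank 239). The other 8, gcm2, crq, Pxn, Col4a1, vkg, NimC1, Hml and Adh, are mostly genes of differentiated cells and had no thresholded summit.

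The genes whose strongest summit was most like each member were sought by Euclidean distance in log2 signal over the 2 replicates, among 2174 genes. For pnr they were dlp (0.11) and BigH1 (0.12), and for srp BobA (0.020) and blot (0.059). For GATAe they were dar1 (0.036) and cindr (0.037), and for grn CG11550 (0.0065) and CG5938 (0.014). Each distance rests on 2 values per gene.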

How the data were processed

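Tailless-GFP binding was represented by 4 peak lists on dm6. The texts deposited with the lists say that a replicate's list came from its own alignment and a control alignment shared by both, and the pooled list from both replicates. Not given in the sources used here are aligner, peak caller and reproducibility threshold. The signal value is the enrichment the authors deposited for each peak, on an unstated scale. The deposited −log10 q-value has a ceiling (4.26 in the pooled list), so ranks follow signal. Summits are the interval start plus the deposited offset, and summits sharing an interval were kept apart. Replicate and pooled lists end at 30000 entries, and depth is unknown.

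Gene models were those of Ensembl release 115 (BDGP6.54). Sequence was read from RefSeq's Release 6 assembly, which is dm6. A replicate's value at a summit was that of its nearest summit within 250 bp. At the strongest summit of each gene the strongest overlapping entry gave the same value. Counts, shares and exact binomial 95% intervals used scipy 1.17.1, pandas 2.3.3 and numpy 2.4.6 under Python 3.11.15; plots used matplotlib 3.10.9. Nearest-TSS assignment and word searches were tested on simulated data, while the gene-body step and recurrence were not. Named were the 4 genes with every thresholded summit, GATAd, neighbouring genes, every bound member of the 5 lists with values for up to 3, and the 2 genes most like each member. The members and lists were chosen with earlier results of these data known. Rpd3 was matched through its newer name, HDAC1. Alternatives were other distance limits, windows and overlaps, a 7-letter word, 1 summit per interval, the stronger 50% of thresholded summits, and each replicate alone.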

Additional observations from a re-analysis of the deposited data

How the results depend on the processing

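No paired analysis was possible because the samples form 1 group. Of 107 alternative values 6 moved. Counts were judged by a factor of 1.5, shares by the exact interval of the reported share and signals by the SD over replicates. With 2 replicates, each single value always lies within that SD of their mean. Signals with 1 replicate dropped could therefore not move, and their place among the unmoved values says nothing about stability. Some shares changed by over 1.5 times inside their wide intervals. The Tailless word share at thresholded members was 7.14% with 25 bp and 35.7% with 100 bp, against 21.4%. All thresholded summits had 8.28%, 24.3% and 15.0%, each inside the members' exact interval at that width. At pooled members the share was 14.3% without replicate 1 and 5.56% without replicate 3, against 8.45%. The Tailless word share at pooled GATA gene summits was 2.82% with 25 bp searched and 19.7% with 100 bp, against 8.45% with 50 bp; all pooled summits had 5.24%, 16.9% and 9.89%, and a wider window holds more words by construction. Replicate 1 summits matched in replicate 3 were 36 of 72 when summits had to lie within 100 bp, against 60 by overlap. Among the stronger 50% of thresholded summits pnr and grn kept 3 each of 5, since a shorter list drops weaker summits; grn had 3 without replicate 3. Every one of the 4 genes had a thresholded summit under each alternative run for that count: a 10 kb limit, nearest TSS alone, the stronger 50% of thresholded summits and each replicate alone. The 14 summits became 13 without replicate 3 and 14 without replicate 1. Unknown depth and the fixed list length limit what can be said of weak summits.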
